A study of Mus musculus with 6 samples.

Results

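This account covers 31 genes in macrophages sorted from mouse tumours: 20 genes of cytosolic aminoacyl-tRNA synthetases and 11 genes of the integrated stress response that turns on the transcription factor ATF4. They were chosen by gene symbol, and all 31 were found among the 15487 genes of the deposited table. The macrophages came from CT26 tumours, a colon carcinoma line of BALB/c mice, on day 15 after implantation. In the Sg-C3 group the tumour cells are labelled with a guide against complement C3, and in the Sg-Con group with a control guide. Each group had 3 libraries from hosts labelled BALB/C and wild type, so by label only the tumour cells differ, and a count of C3 RNA in host macrophages says nothing about the edit. Neither the number of tumour cell clones nor the number of animals behind the 3 libraries is given in the labels. P-values therefore reflect variation among 6 libraries that may be technical replicates.

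Aminoacyl-tRNA synthetases join each amino acid to its tRNA, the step that supplies the ribosome. When amino acids run short or proteins misfold, the kinases GCN2 (Eif2ak4) and PERK (Eif2ak3) phosphorylate the initiation factor eIF2, which slows translation in general and favours translation of the Atf4 message. ATF4 then raises genes of amino acid synthesis and transport and many synthetase genes, so the 2 sets share a regulator, and because ATF4 is controlled largely at translation its RNA level does not report its activity. Among the synthetases, Wars (tryptophan) is also known as a gene induced by interferon gamma, which sets it apart from the rest of its family.

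The binding site of ATF4 with its C/EBP partners, searched here as TGATGNAA on both strands, is shown for the members that carry it because it links the 2 sets. RefSeq promoters on GRCm38.p6 were found for 24 of the 31 genes, and not for Cars, Hars, Lars, Nars, Rars, Vars and Wars. In the 250 bases before the start of transcription the element occurred in 5 genes, Aars, Gars, Tars, Asns and Chac1, against 3.45% of all 32851 promoter windows. Stretches of 80 bases are printed from 5′ to 3′ on the gene's strand, with the element or its reverse complement in capitals:
Aars (chr8:111033694-111033773, plus strand): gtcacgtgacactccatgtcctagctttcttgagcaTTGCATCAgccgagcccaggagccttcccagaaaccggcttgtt
Gars (chr6:55037921-55038000, plus strand): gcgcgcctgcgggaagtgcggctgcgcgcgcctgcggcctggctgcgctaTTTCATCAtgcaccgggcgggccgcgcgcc
Tars (chr15:11399659-11399738, minus strand): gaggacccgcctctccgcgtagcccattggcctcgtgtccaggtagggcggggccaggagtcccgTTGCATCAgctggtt
Asns (chr6:7693210-7693289, minus strand): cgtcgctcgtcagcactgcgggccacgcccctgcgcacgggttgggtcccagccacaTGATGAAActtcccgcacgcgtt
Chac1 (chr2:119351013-119351092, plus strand): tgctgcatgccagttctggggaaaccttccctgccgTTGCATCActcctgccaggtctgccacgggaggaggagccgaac
A match in these letters is a description and not a binding site. The element began 112 bases before the start in Aars, 30 in Gars, 15 in Tars, 23 in Asns and 193 in Chac1. Of these 5 genes, Gars and Tars were lower in Sg-C3 and the other 3 did not pass the test, as described below.

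All values are FPKM, the fragments of a gene scaled to its length and to the reads mapped in the library, so levels can be compared between genes. The values imply 17.6 to 18.9 megareads mapped per library in Sg-C3 and 18.5 to 19.3 in Sg-Con. Genes that reached 1 FPKM in 3 or more of the 6 libraries were fitted with limma on log2(FPKM + 1), a scale that understates the change of low genes, and a Benjamini-Hochberg adjusted p below 0.05 over all tested genes is called higher or lower. All 31 members passed that filter. Of 11198 tested genes 12.7% were higher and 31.7% lower in Sg-C3, and the median log2 fold change, Sg-C3 minus Sg-Con, was -0.16. That shift is in the deposited values, and its source was not tested. Counts are also given after median-ratio scaling, which centres the median by construction. The median was then 0.00, and the shares were 19.6% higher and 17.6% lower. Under the other settings the shares of all tested genes, higher and then lower, were 12.5% and 31.4% with a pseudocount of 0.1, 14.2% and 33.9% with a mean of at least 5 FPKM, 16.6% and 21.9% after quantile normalization, 14.3% and 35.9% with array weights, and 10.7% and 26.0% with title style added as a covariate. They were 7.98% and 21.9% without Sg-C3 replicate 1, 7.35% and 17.9% without Sg-C3 replicate 2, and 12.9% and 33.0% without Sg-C3 replicate 3. Leaving out Sg-Con replicate 1, 2 or 3 gave 10.4% and 21.9%, 9.07% and 22.9%, and 11.9% and 25.1%.

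The macrophage label fits the most abundant markers, with C1qa at a mean of 2160 FPKM in Sg-C3 and 2470 FPKM in Sg-Con. Summed over 11 macrophage markers the libraries held 10526 to 13126 FPKM in Sg-C3 and 16554 to 18156 FPKM in Sg-Con, and Cd68, Mertk, Itgam and Lyz2 were lower. Other cell types moved with the groups. Tested without the filter, where 10.0% of all 15487 genes were higher and 22.1% lower, 12 of 15 T and NK cell markers, 6 of 13 dendritic cell markers, 4 of 11 neutrophil markers and 5 of 12 fibroblast markers were higher, 2 fibroblast markers were lower, and 3 of 9 carcinoma markers were lower. The summed T and NK markers came to 52.6 to 64.3 FPKM in Sg-C3 and 3.97 to 9.14 FPKM in Sg-Con, with Cd3g, Prf1, Ncr1 and Nkg7 listed at 0 in at least 1 library. The sums for neutrophils were 395 to 1348 against 163 to 233 FPKM, for dendritic cells 54.3 to 80.1 against 19.4 to 33.3 FPKM, for fibroblasts 193 to 272 against 92.3 to 141 FPKM, and for carcinoma 4.1 to 8.82 against 33.5 to 65.1 FPKM, Sg-C3 before Sg-Con in each pair. Of 24 cell cycle genes 18 were lower in the same unfiltered test and none higher. With the filter 20 were lower, beside 31.7% of all tested genes, and their summed level was 388 to 455 FPKM in Sg-C3 and 461 to 639 FPKM in Sg-Con. The part of these markers in the results below was not tested, and in bulk samples fewer cells of a type and less RNA per cell cannot be told apart.

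Most cytosolic synthetase genes were lower in macrophages from Sg-C3 tumours, and none was higher. Of the 20, 13 fell, none rose and 7 did not pass, beside 31.7% of all tested genes that were lower. Summed over the 20 genes, the libraries held 451, 435 and 470 FPKM in Sg-C3 and 590, 547 and 558 FPKM in Sg-Con, so the groups did not overlap. The median log2 fold change of the 20 was -0.36, against -0.16 over all tested genes. After median-ratio scaling 8 were lower and none higher (Dars, Farsb, Gars, Iars, Lars, Mars, Sars and Yars), beside 17.6% of all genes. Without Sg-C3 replicate 1 the 13 calls became 8, beside 21.9% of all genes, and without Sg-C3 replicate 2 they became 6, beside 17.9%. In all, 6 genes (Dars, Farsb, Gars, Iars, Mars and Sars) were called lower whichever library was left out. The share of all tested genes called lower in every such fit was not computed.

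**Figure D1:**
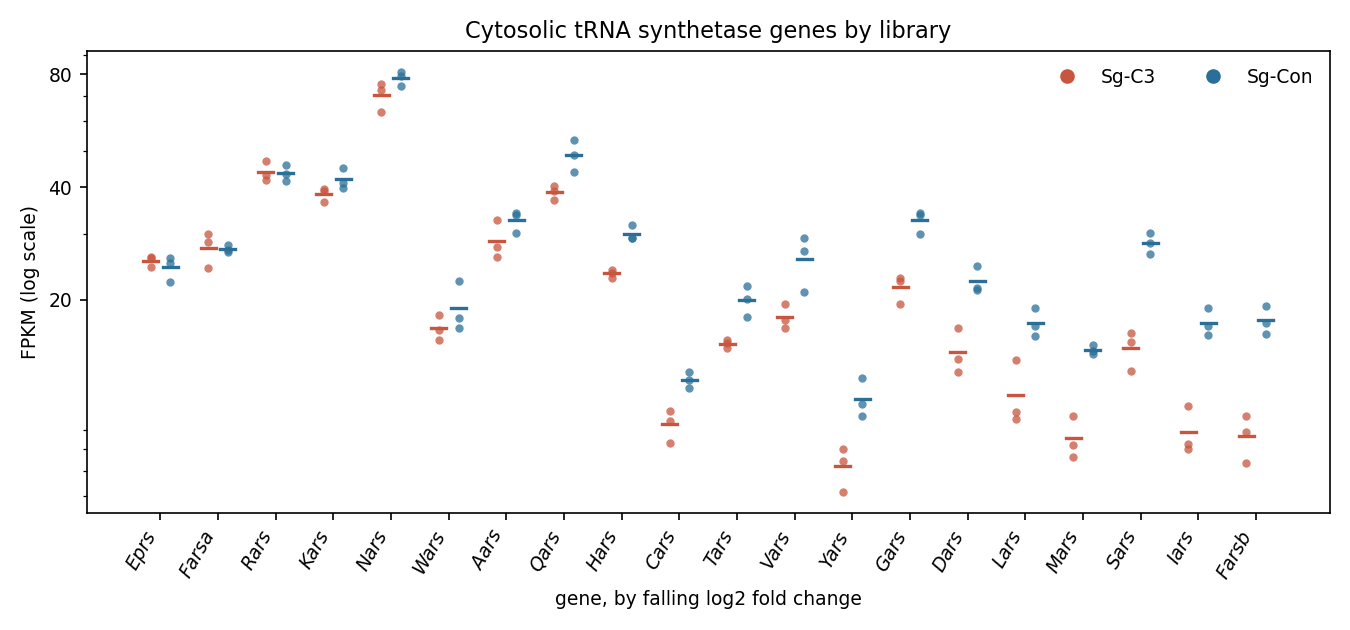
FPKM on a log scale of the 20 cytosolic synthetase genes, ordered by falling log2 fold change. Points are libraries (Sg-C3 left in red, Sg-Con right in blue, 3 each) and bars are group means; from Eprs to Aars most groups overlap, and at the right end Farsb, Iars and Sars lie wholly lower in Sg-C3.

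The lowest fold changes belonged to Farsb, Iars and Sars. Farsb, the beta subunit of phenylalanyl-tRNA synthetase, stood at 8.89, 7.36 and 9.8 FPKM in Sg-C3 and at 19.3, 17.4 and 16.3 FPKM in Sg-Con (log2 fold change -0.95, SE 0.13, limma adjusted p = 0.0026). Every Sg-C3 library was below every Sg-Con library, with a ratio of means of 0.492. Iars (isoleucine) had 8.01, 8.27 and 10.4 FPKM in Sg-C3 against 19, 16.1 and 17 FPKM in Sg-Con (log2 fold change -0.90, SE 0.12, adjusted p = 0.00297). Sars (serine) had 15.5, 12.9 and 16.3 FPKM in Sg-C3 against 30.2, 28.3 and 26.4 FPKM in Sg-Con (log2 fold change -0.89, SE 0.11, adjusted p = 0.00235). For these genes too the groups lay apart, and the highest Sg-C3 value was in replicate 3 each time. In the annotation 9.5% of the exonic bases of Farsb lie opposite exons of Sgpp2 on the other strand, and the counting is not stated to use strand.

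The 250 bases before the start of Farsb, the synthetase with the lowest fold change, held none of the motifs searched here (chr1:78488898-78489147, minus strand, GRCm38.p6):
Farsb: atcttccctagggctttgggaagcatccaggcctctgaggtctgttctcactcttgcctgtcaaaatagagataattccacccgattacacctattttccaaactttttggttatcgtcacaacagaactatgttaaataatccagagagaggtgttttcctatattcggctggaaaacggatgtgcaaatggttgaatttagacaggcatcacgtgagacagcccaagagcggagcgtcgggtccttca
Those motifs were the ATF4 element, the interferon-stimulated response element (in 2.98% of all windows), the gamma-activated site (TTCNNNGAA, in 7.02%) and the endoplasmic reticulum stress element (in 0.113%), each on both strands. Among the other members the interferon-stimulated element was found in Qars and Ppp1r15a, the gamma-activated site in Aars, Kars and Eif2ak3, and the stress element in none, and no 2 of these matches overlapped.

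Farsa, the alpha subunit of the same phenylalanyl enzyme, was not lower. Its values were 29.9, 24.4 and 28.5 FPKM in Sg-C3 and 28.1, 27.2 and 26.9 FPKM in Sg-Con, so the groups overlapped (log2 fold change 0.01, SE 0.10, adjusted p = 0.965). The enzyme is built from equal numbers of both subunits. Within each library the ratio of Farsa to Farsb FPKM was 3.36, 3.31 and 2.91 in Sg-C3 and 1.45, 1.56 and 1.65 in Sg-Con, a comparison that does not depend on the scaling between libraries. All Sg-C3 ratios were above all Sg-Con ratios. The contrast between the subunits was noticed in these data and no test of it was made.

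Of the other lower synthetases, Mars (methionine) stood at 8.54 ± 1.12 FPKM in Sg-C3 and 14.7 ± 0.383 FPKM in Sg-Con (SD, n = 3 each, log2 fold change -0.73, adjusted p = 0.00376). Gars (glycine), whose gene also supplies the mitochondrial enzyme, had 22.9, 19.5 and 22.5 FPKM in Sg-C3 and 34.1, 30 and 33.7 FPKM in Sg-Con (log2 fold change -0.57, adjusted p = 0.00596). Lars (leucine), Dars (aspartate) and Yars (tyrosine) had log2 fold changes of -0.61, -0.60 and -0.54. In these genes, too, no Sg-C3 library reached a Sg-Con library. Dars at 12.9, 13.9 and 16.8 FPKM in Sg-C3 and 24.6, 21.5 and 21.2 FPKM in Sg-Con was called with each library left out. Lars had 9.64, 10.1 and 13.8 FPKM in Sg-C3 and 19.1, 17 and 16.1 FPKM in Sg-Con, and was not called without Sg-C3 replicate 1 (adjusted p = 0.0542) or Sg-C3 replicate 2 (0.0603). Yars had 8, 6.15 and 7.43 FPKM in Sg-C3 and 12.4, 9.79 and 10.6 FPKM in Sg-Con, and was not called without Sg-C3 replicate 2 (0.055).

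Smaller changes were called for Vars (valine), Cars (cysteine), Tars (threonine), Hars (histidine) and Qars (glutamine). Their log2 fold changes were -0.48, -0.36, -0.36, -0.34 and -0.32, with adjusted p between 0.0157 and 0.0371. Each lost its call without at least 2 of the 6 libraries and after median-ratio scaling, where their adjusted p ran from 0.0899 to 0.361. Hars is the steadiest of these, at 24, 23.7 and 22.9 FPKM in Sg-C3 and 29.2, 29.2 and 31.6 FPKM in Sg-Con. Qars, with the highest level of this group, had 36.9, 39.2 and 40.4 FPKM in Sg-C3 and 48.7, 53.4 and 43.8 FPKM in Sg-Con.

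The synthetases that did not pass were Aars (alanine), Eprs, Farsa, Kars (lysine), Nars (asparagine), Rars (arginine) and Wars. Nars, with the highest level of the family, had 63.4, 72.7 and 75.1 FPKM in Sg-C3 and 81.2, 78.9 and 74.5 FPKM in Sg-Con (log2 fold change -0.15, adjusted p = 0.221). Rars had 47, 43.2 and 41.8 FPKM in Sg-C3 and 43.3, 41.5 and 45.9 FPKM in Sg-Con (0.01, adjusted p = 0.909). Eprs, a single protein that charges both glutamate and proline tRNAs, had 24.4, 26.1 and 25.9 FPKM in Sg-C3 and 22.4, 25.1 and 25.9 FPKM in Sg-Con (0.06, adjusted p = 0.634). Kars had 39, 36.5 and 39.6 FPKM in Sg-C3 and 45.1, 39.7 and 41 FPKM in Sg-Con, with no overlap between the groups but a log2 fold change of only -0.12 (adjusted p = 0.281). Aars had 32.6, 27.6 and 26 FPKM in Sg-C3 and 33.7, 30.2 and 34.1 FPKM in Sg-Con (-0.18, adjusted p = 0.212), and 14.3% of its exonic bases are shared with Exosc6 on the same strand. In total 14 of the 20 genes had all Sg-C3 values below all Sg-Con values, beside 41.4% of all tested genes, and none had the reverse.

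Lower genes were found in each structural class of the family. Of the 8 synthetases held in the multi-synthetase complex (Dars, Eprs, Iars, Kars, Lars, Mars, Qars and Rars) 5 were lower, with a median log2 fold change of -0.46, and of the 12 outside it 8 were lower, with a median of -0.36. The 3 genes of the scaffold proteins of that complex, Aimp1, Aimp2 and Eef1e1, were lower as well. Their log2 fold changes were -0.35, -0.43 and -0.42, and after median-ratio scaling none was called. Class I enzymes were lower in 7 of 9 cases and class II enzymes in 6 of 10, with Eprs left out because it joins a domain of each class, beside 31.7% of all genes. After median-ratio scaling 4 genes of each class, 4 of the complex and 4 outside it were lower, beside 17.6% of all genes. Without Sg-C3 replicate 2 the lower genes numbered 2 of class I, 4 of class II, 3 of the complex and 3 outside it. The share of all genes was then 17.9%. Without Sg-C3 replicate 1 the lower genes numbered 3, 5, 3 and 5 in the same order, beside 21.9%. Without Sg-Con replicate 1 they numbered 4, 5, 4 and 5, beside 21.9%. Without Sg-Con replicate 3 they numbered 5, 4, 5 and 4, beside 25.1%. The smallest of these counts lie near the share of all genes. No difference between these subgroups was tested. Among the genes of the 17 mitochondrial synthetases, 14 passed the filter. Of these, 7 were lower and none higher, beside 31.7% lower of all tested genes. After median-ratio scaling 3 were lower, beside 17.6% of all genes. Leaving out Sg-C3 replicate 1 or 2 also left 3 lower, beside 21.9% and 17.9%. These smaller counts are near the shares of all genes. The 6 mitochondrial genes with the smallest p were Iars2 (-0.70), Aars2 (-0.65), Lars2 (-0.61), Nars2 (-0.52), Tars2 (-0.72) and Rars2 (-0.65). In a list of 14 translation factors 3 were lower and none higher, beside 31.7% and 12.7% of all tested genes. The 3 were Eef1g (-0.45), Eif3c (-0.33) and Eef1d (-0.32). The median log2 fold change of that list was -0.11, against 0.08 after median-ratio scaling. With that scaling 1 was lower and 1 higher, beside 17.6% and 19.6% of all genes.

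Wars, which charges tryptophan, did not pass the test in either direction. Its values were 16.6, 15.7 and 18.2 FPKM in Sg-C3 and 22.5, 16.8 and 17.9 FPKM in Sg-Con, or 16.8 ± 1.29 and 19.1 ± 2.99 FPKM (SD, n = 3 each). Sg-Con replicate 1 was the highest of the 6, and the groups overlapped (log2 fold change -0.16, SE 0.13, limma adjusted p = 0.324). The log2 fold change was 0.02 after median-ratio scaling (adjusted p = 0.9), -0.04 without Sg-Con replicate 1 and -0.24 without Sg-Con replicate 2. At the depth implied by the values, these levels stand for roughly 830 to 1232 reads per library, so counting error is small beside the spread between libraries. The gene-level table does not separate Wars transcripts with different starts.

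Set against its family within each library, Wars stood higher in Sg-C3. This was not particular to Wars: Eprs (0.06), Farsa (0.01), Rars (0.01), Kars (-0.12) and Nars (-0.15) had higher log2 fold changes than Wars (-0.16), against the family median of -0.36. The median of the other 19 synthetases was 17.7, 16.8 and 19.5 FPKM in Sg-C3 and 28.1, 25.1 and 26.4 FPKM in Sg-Con. On the log2(FPKM + 1) scale Wars minus that median was -0.09, -0.10 and -0.09 in Sg-C3 and -0.31, -0.55 and -0.54 in Sg-Con, a difference of 0.37 between the group means. All Sg-C3 values were above all Sg-Con values, and the difference stayed between 0.33 and 0.45 with any library left out. In rank, Wars was number 11 of the 20 in each Sg-C3 library and number 12, 16 and 14 in the Sg-Con libraries. Because Wars was singled out with these data known, no test is given.

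**Figure D2:**
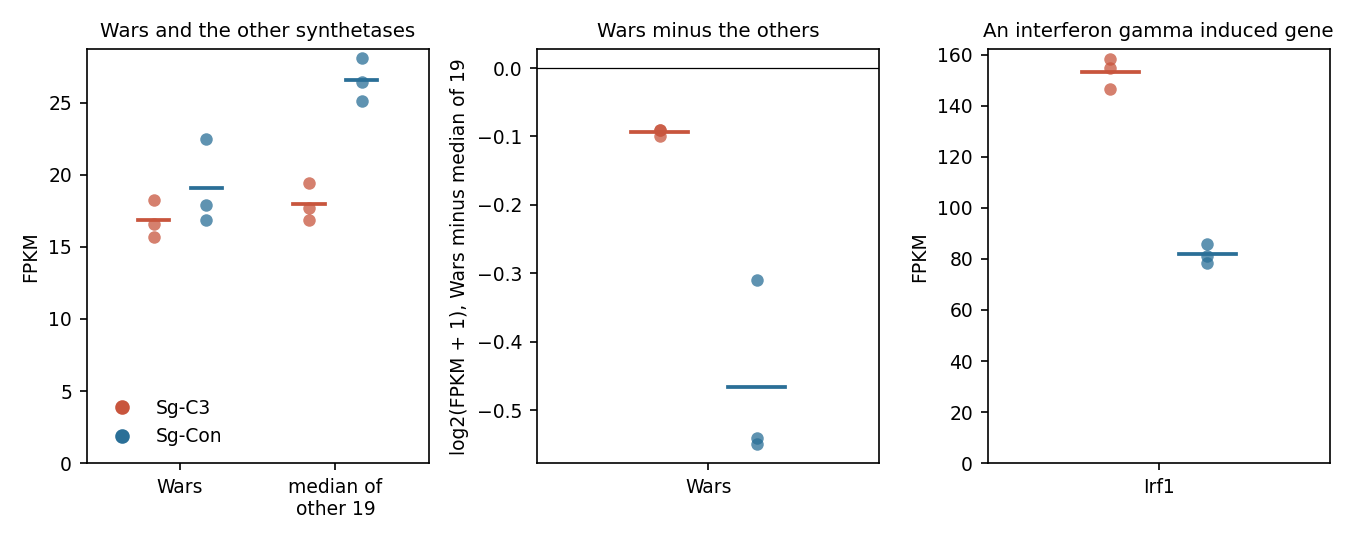
Left, FPKM of Wars and the median FPKM of the other 19 synthetases; middle, Wars minus that median on log2(FPKM + 1); right, FPKM of Irf1. Points are libraries (Sg-C3 left in red, Sg-Con right in blue, 3 each) and bars group means; Wars overlaps between the groups while the median of the others is lower, and Irf1 higher, in all Sg-C3 libraries.

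Most interferon gamma genes beside which Wars is usually listed were higher in Sg-C3. Irf1, a transcription factor of the response, had 158, 147 and 155 FPKM in Sg-C3 and 85.7, 78.6 and 81.3 FPKM in Sg-Con (log2 fold change 0.90, SE 0.08, adjusted p = 0.00115). Of 21 listed genes of this response 19 were higher and none lower, beside 12.7% and 31.7% of all tested genes. All 21 were higher after median-ratio scaling, beside 19.6% of all genes. The difference between Wars and these genes was not tested.

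Genes that use or break down tryptophan, the amino acid of Wars, were mostly low. Of 11 such genes with values, 7 passed the filter, and 1 was higher and 1 lower, beside 12.7% and 31.7% of all tested genes. Without the filter 3 of the 11 were higher and 1 lower, beside 10.0% and 22.1% of all genes. After quantile normalization 3 of the 7 filtered genes were higher and 1 lower, beside 16.6% and 21.9%. Kynu (kynureninase) had 1.4, 1.52 and 2.44 FPKM in Sg-C3 and 0.63, 0.2 and 0.32 FPKM in Sg-Con (log2 fold change 1.00, adjusted p = 0.00651), but it passed the filter only through its Sg-C3 values, and did not pass it with any Sg-C3 library left out. Ccbl1, a kynurenine aminotransferase, had 0.94 ± 0.135 FPKM in Sg-C3 and 1.9 ± 0.263 FPKM in Sg-Con (-0.58, adjusted p = 0.00964). Ido1, the interferon-induced dioxygenase that degrades tryptophan, stayed below the filter at 0.42, 0.71 and 0.72 FPKM in Sg-C3 and 0.1, 0.04 and 0.1 FPKM in Sg-Con. Without the filter it was called higher (adjusted p = 0.00736). So was its relative Ido2, at 0.91, 1.14 and 0.69 FPKM in Sg-C3 and 0.19, 0.1 and 0.1 FPKM in Sg-Con (adjusted p = 0.00454), which also stayed below the filter and is named after its values were seen.

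**Figure D3:**
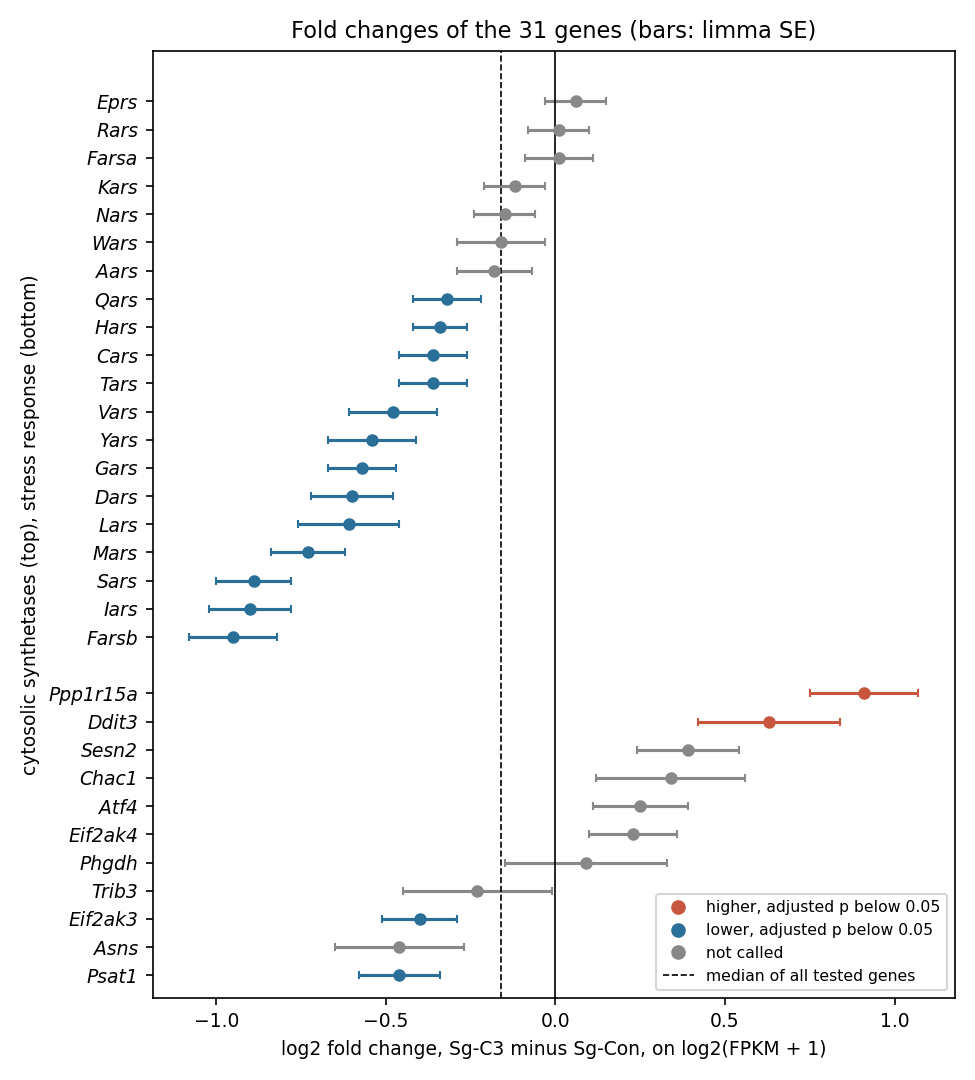
Log2 fold change, Sg-C3 minus Sg-Con, on log2(FPKM + 1) for the 20 synthetase genes (top) and 11 stress response genes (bottom), with bars for limma's SE. Red is called higher, blue lower and grey not called; the dashed line is the median of all tested genes at -0.16, and the synthetases reach from 0.06 (Eprs) to -0.95 (Farsb) while Ppp1r15a stands at 0.91.

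Stress response genes were called in both directions, and only the call of Ppp1r15a held whichever library was left out. Of 11, 2 were higher (Ppp1r15a and Ddit3), 2 lower (Psat1 and Eif2ak3) and 7 did not pass, beside 12.7% higher and 31.7% lower of all tested genes. After median-ratio scaling 5 were higher (Atf4, Ddit3, Sesn2, Eif2ak4 and Ppp1r15a) and none lower, beside 19.6% higher of all genes. The median log2 fold change was 0.23, against -0.36 for the synthetases. Immediate early and heat shock genes, given as a sign of how the cells were handled, summed over 18 genes to 4428, 3799 and 7487 FPKM in Sg-C3 and 6281, 5967 and 5096 FPKM in Sg-Con. That list was drawn up after the members' values were seen, its groups overlapped, and 2 of its genes were higher (Dnajb1 at 0.95 and Hsph1 at 0.68) and 2 lower (Klf4 at -1.02 and Nr4a1 at -1.29), beside 12.7% and 31.7% of all genes. The lower count rested on single libraries: it was 8 without Sg-C3 replicate 3, beside 33.0% of all genes, 5 with array weights, 0 without Sg-C3 replicate 1, Sg-C3 replicate 2 or Sg-Con replicate 2, and 1 when the first Sg-Con library was left out. The part of these genes in the results was not tested.

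**Figure D4:**
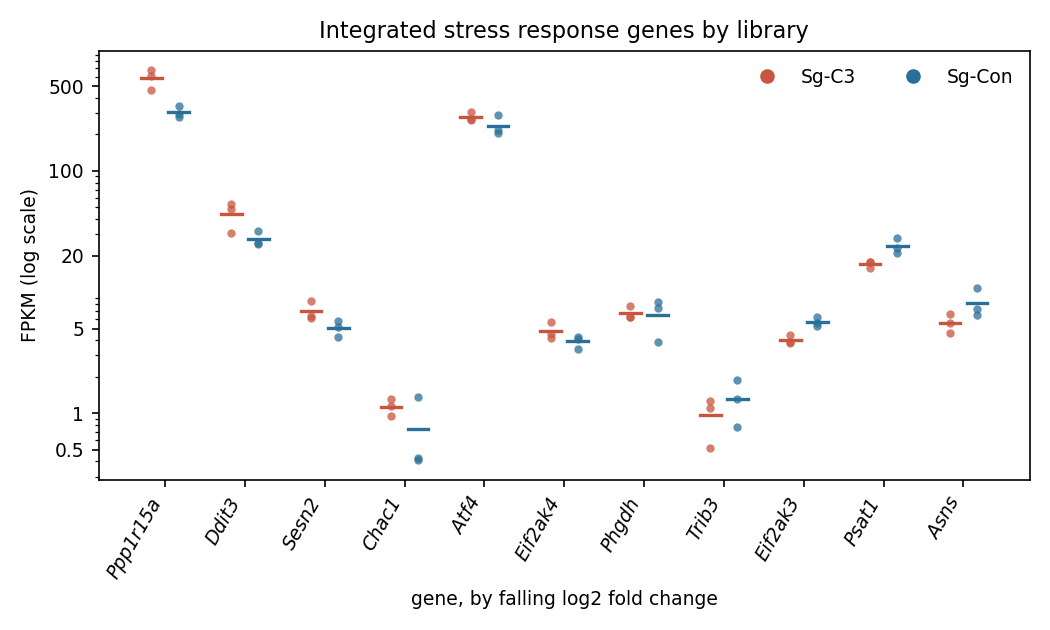
FPKM on a log scale of the 11 stress response genes, ordered by falling log2 fold change. Points are libraries (Sg-C3 left in red, Sg-Con right in blue, 3 each) and bars group means; Ppp1r15a and Sesn2 lie wholly higher and Psat1 and Eif2ak3 wholly lower in Sg-C3, and the other 7 overlap.

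Ppp1r15a (GADD34), which directs a phosphatase to eIF2 and so ends the response, rose the most of all 31 members. It had 601, 465 and 677 FPKM in Sg-C3 and 345, 294 and 278 FPKM in Sg-Con (log2 fold change 0.91, SE 0.16, limma adjusted p = 0.00527). The groups lay apart, and the gene was called with each library left out. Its promoter window is printed for that reason (chr7:45526269-45526518, minus strand, GRCm38.p6), with a match to the interferon-stimulated element that begins 220 bases before the start in capitals:
Ppp1r15a: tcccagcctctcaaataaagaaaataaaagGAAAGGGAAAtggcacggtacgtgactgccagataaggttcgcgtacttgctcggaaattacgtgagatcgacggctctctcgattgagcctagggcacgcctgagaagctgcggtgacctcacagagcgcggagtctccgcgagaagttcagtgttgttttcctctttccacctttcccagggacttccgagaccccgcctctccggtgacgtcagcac
Its constitutive relative Ppp1r15b (CReP), which is not among the 31, was higher too, at 94.6, 88.9 and 71.9 FPKM in Sg-C3 and 49.7, 49.2 and 51 FPKM in Sg-Con (log2 fold change 0.75, adjusted p = 0.00387).

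Ddit3, which encodes the stress factor CHOP, was higher by a smaller margin. Its values were 48.1, 31 and 53.5 FPKM in Sg-C3 and 25.6, 24.9 and 32.2 FPKM in Sg-Con, so Sg-C3 replicate 2 lay below Sg-Con replicate 3 (log2 fold change 0.63, SE 0.21, adjusted p = 0.0422). The call was lost without Sg-C3 replicate 1 (0.125), Sg-C3 replicate 3 (0.0999), Sg-Con replicate 1 (0.101) or Sg-Con replicate 2 (0.111), and without the filter. On the opposite strand it shares 68 exonic bases with Mars, which was lower.

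Atf4, the factor at the centre of the response, had 305, 265 and 266 FPKM in Sg-C3 and 204, 216 and 288 FPKM in Sg-Con. Sg-Con replicate 3 lay among the Sg-C3 values, and the difference did not pass (log2 fold change 0.25, SE 0.14, adjusted p = 0.186, or 0.44 and 0.0465 after median-ratio scaling). Sesn2, a sensor of leucine that restrains mTORC1, had 8.41, 6.37 and 6.09 FPKM in Sg-C3 and 5.12, 4.22 and 5.81 FPKM in Sg-Con, without overlap (0.39, SE 0.15, adjusted p = 0.0727, or 0.0243 after median-ratio scaling). Chac1, a glutathione-degrading target of the pathway, was low at 1.31, 1.14 and 0.95 FPKM in Sg-C3 and 0.43, 0.41 and 1.37 FPKM in Sg-Con (adjusted p = 0.231), or roughly 12 to 42 reads per library. Trib3, a pseudokinase that feeds back on ATF4, had 1.25, 1.11 and 0.52 FPKM in Sg-C3 and 1.3, 0.77 and 1.88 FPKM in Sg-Con (adjusted p = 0.417), or roughly 19 to 71 reads. For both genes Sg-Con replicate 3 was the highest library.

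Of the members that make amino acids (Psat1, Asns and Phgdh), 1 was lower and none higher, beside 31.7% and 12.7% of all tested genes. Psat1, an enzyme of serine synthesis, had 17.8, 15.8 and 17.7 FPKM in Sg-C3 and 23.2, 21 and 27.8 FPKM in Sg-Con (log2 fold change -0.46, SE 0.12, adjusted p = 0.0201). It lost its call without Sg-C3 replicate 2 (0.0743) or Sg-Con replicate 3 (0.0529) and after median-ratio scaling (0.0861). Asns, asparagine synthetase, had 6.61, 5.52 and 4.6 FPKM in Sg-C3 and 6.45, 7.28 and 10.7 FPKM in Sg-Con (-0.46, SE 0.19, adjusted p = 0.0904). Phgdh, the first enzyme of serine synthesis, had 7.61, 6.27 and 6.28 FPKM in Sg-C3 and 3.9, 7.36 and 8.27 FPKM in Sg-Con (0.09, SE 0.24, adjusted p = 0.778). Its groups overlapped, and its log2 fold change was -0.19 without Sg-Con replicate 1.

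Of the kinases among the 31 genes that start the response, 1 was lower and 1 did not pass, beside 31.7% lower of all tested genes. The difference between them was not tested. Eif2ak3, the PERK gene of endoplasmic reticulum stress, had 3.87, 3.77 and 4.45 FPKM in Sg-C3 and 6.17, 5.52 and 5.21 FPKM in Sg-Con (log2 fold change -0.40, SE 0.11, adjusted p = 0.024). It was not called after median-ratio scaling (0.0996), nor without Sg-C3 replicate 1 (0.0714), Sg-C3 replicate 2 (0.0842), Sg-Con replicate 1 (0.079) or Sg-Con replicate 2 (0.0598). Eif2ak4, the GCN2 gene of amino acid shortage, had 5.63, 4.52 and 4.2 FPKM in Sg-C3 and 4.27, 3.41 and 4.06 FPKM in Sg-Con (0.23, SE 0.13, adjusted p = 0.189, or 0.0471 after median-ratio scaling). Outside the 31 genes, and singled out after its values were seen, Eif2ak2, the interferon-induced kinase PKR that responds to double-stranded RNA, was higher. It had 15.3, 14.7 and 13.3 FPKM in Sg-C3 and 10.9, 8.23 and 10 FPKM in Sg-Con (0.53, adjusted p = 0.0128). Eif2ak1, the remaining eIF2 kinase gene, also named after its values were seen, was lower (-0.26, limma adjusted p = 0.045). It was not called after median-ratio scaling (0.482) or with any library left out.

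Genes of eIF2 and its exchange factor eIF2B, with the remaining kinases and phosphatase partners, were 3 higher and 6 lower of 12. The shares of all tested genes were 12.7% and 31.7%. Eif2b3, Eif2b1, Eif2b4 and Eif2b5, subunits of eIF2B, were lower, with log2 fold changes of -0.92, -0.58, -0.58 and -0.42. Eif2b5 was not called after median-ratio scaling (limma adjusted p = 0.0559). Eif2b2, the remaining subunit, also singled out after its values were seen, was higher. It had 39 ± 6.35 FPKM in Sg-C3 and 26.3 ± 2.07 FPKM in Sg-Con. The gamma subunit gene of eIF2, Eif2s3x, was lower (-0.47, limma adjusted p = 0.00902), but was not called after median-ratio scaling (0.0658). After median-ratio scaling 3 of the 12 were higher and 3 lower, beside 19.6% and 17.6% of all genes.

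In a wider list of ATF4 targets, 5 of the 26 that passed the filter were higher and 9 lower, shares near the 12.7% and 31.7% of all tested genes. The median log2 fold change was -0.38. After median-ratio scaling 6 were higher and 7 lower, beside 19.6% and 17.6% of all genes. Those higher included Gadd45a, a growth arrest gene, at 91.1 ± 11 FPKM in Sg-C3 and 28.8 ± 4.07 FPKM in Sg-Con (log2 fold change 1.63, adjusted p = 0.00104), and Ddit4, an inhibitor of mTORC1, at 55.3 ± 6.77 and 21.2 ± 3.22 FPKM (1.34, adjusted p = 0.00161). Among the lower ones were Xpot, the exporter of tRNAs from the nucleus, at 7.49 ± 0.467 FPKM in Sg-C3 and 12.5 ± 0.478 FPKM in Sg-Con (-0.67, adjusted p = 0.00298), the alanine transaminase gene Gpt2 (-1.07), Mthfd1l of mitochondrial folate metabolism (-0.69) and Cebpg, a partner of ATF4 (-0.85). Leaving out Sg-C3 replicate 1, Sg-C3 replicate 2 or Sg-Con replicate 2 left 3 genes of the wider list higher. The shares of all genes that were higher were then 7.98%, 7.35% and 9.07%. Several of these genes have other known inducers besides ATF4.

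In the neighbouring unfolded protein response, 4 of 18 genes were higher and 1 lower, beside 12.7% and 31.7% of all tested genes. After median-ratio scaling 7 were higher and 1 lower, beside 19.6% and 17.6% of all genes. Hspa5, the main chaperone of the endoplasmic reticulum, had 1380 ± 179 FPKM in Sg-C3 and 929 ± 74.5 FPKM in Sg-Con (log2 fold change 0.56, adjusted p = 0.0102). Syvn1, Manf and Ern1 were the others that were higher (0.49, 0.42 and 0.52), and Pdia4, a protein disulfide isomerase gene, was lower (-0.76, adjusted p = 0.0142). Of the 6 fits with a library left out, Syvn1 was called in 6, Pdia4 in 4, Manf in 2 and Ern1 in 1. Ern1 was also not called without the filter (limma adjusted p = 0.0514). Leaving out Sg-C3 replicate 1 or 2, or Sg-Con replicate 2, left 2 genes of this list higher. The shares of all genes that were higher were then 7.98%, 7.35% and 9.07%.

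The libraries of a group were not alike for the members. Among Sg-C3 libraries, replicate 3 had the highest value for 12 of the 20 synthetases and replicate 2 the lowest for 11. Within Sg-Con, replicate 1 was highest for 14 synthetases, and replicate 3 for 8 of the 11 stress response genes. Over all genes, Sg-C3 replicate 3 also correlated most with the Sg-Con libraries, at Pearson r of 0.961 to 0.974 on log2 values across genes, which are not independent replicates. Its highest r was with Sg-Con replicate 3, which also correlated most with Sg-C3 replicates 1 and 2 (0.965 and 0.962). The sample titles of Sg-C3 replicate 3 and Sg-Con replicate 3 are styled unlike the others. Whether they share a batch is not stated. Sg-C3 replicate 3 held the fewest neutrophil transcripts of its group, a sum of 395 FPKM, and the most immediate early and heat shock RNA.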

How the data were processed

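RNA of sorted macrophages was measured in 6 libraries, 3 Sg-C3 and 3 Sg-Con, numbered in accession order. The deposited table, made by the authors, holds FPKM per gene and library, per the file headers. Bowtie 0.12.2 and mm8 are named in the submitters' processing notes, and 2 library kits, TruSeq and MGIEasy, appear in the labels. The tool that computed FPKM, and whether strand was used, are not given in the sources used here. Depth was estimated by reading the FPKM of 332 short non-coding genes as whole multiples of 1 read, with 36 bases taken off each gene's length. Within 0.1 read, 76.1% to 93.4% of values up to 8 reads were whole per library. Read numbers of members use the longest GENCODE M21 transcript and are rough.

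limma 3.58.1 in R 4.3.3 (lmFit, eBayes with trend) was run on log2(FPKM + 1), and was checked on simulated data. SE is limma's moderated standard error, and ± is SD. Python 3.11.15, pandas 2.3.3, numpy 2.4.6 and matplotlib 3.10.9 were used for tables and drawings. Symbols that a spreadsheet had turned into dates (23) were restored from gene identifiers. The members and lists were chosen with earlier results of these data known. All members are named. From each other list the text names at most 6 called genes by smallest p, with Irf1 and Ido1 in any case. Exceptions, named after values were seen, are the cell type markers, Ido2, Eif2ak1, Eif2ak2, Eif2b2 and the overlapping neighbours Exosc6 and Sgpp2. Cell cycle genes and the interferon list are given by counts, and 1 gene that the rule names is not reported here. RefSeq promoters and exon overlaps are on GRCm38, another build than mm8. Alternatives were another pseudocount (0.1), no filter, a mean of at least 5 FPKM, median-ratio scaling, quantile normalization, array weights, title style as a covariate and leaving out each library. Title style sets Sg-C3 replicate 3 and Sg-Con replicate 3, whose sample titles are formed differently, against the other libraries.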

Additional observations from a re-analysis of the deposited data

How the results depend on the processing

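No synthetase was higher under any alternative. Lower synthetases numbered 8 after median-ratio scaling, 6 to 13 with a library left out and 9 to 13 under the other settings. The shares of all genes that were lower were 17.6%, 17.9% to 33.0% and 21.9% to 35.9%. Higher stress response genes numbered 5 after median-ratio scaling and 4 after quantile normalization, beside 19.6% and 16.6% of all genes. They numbered 1 without the filter and 1 with array weights, beside 10.0% and 14.3%. With a library left out they numbered 1 to 3, beside 7.35% to 12.9%. Lower stress response genes numbered 0 after median-ratio scaling, 1 after quantile normalization and 1 with a mean of at least 5 FPKM. The shares of all genes were then 17.6%, 21.9% and 33.9%. With a library left out the lower ones numbered 0 to 2, beside 17.9% to 33.0%. Over all genes, median-ratio scaling gave 2198 higher and 1971 lower, against 1418 and 3554 as deposited, so that 47.3% of calls were lower instead of 71.5%. Leaving out a library gave 810 to 1423 higher and 1970 to 3639 lower.

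The direction of genes that were not called turned in places. After median-ratio scaling the log2 fold changes were 0.02 for Wars, 0.01 for Aars, 0.07 for Kars and 0.04 for Nars, and Farsa had -0.02 with array weights. With a library left out, Wars ranged from -0.24 to -0.04, Eprs from -0.00 to 0.10, Farsa from -0.05 to 0.09, Rars from -0.03 to 0.05 and Phgdh from -0.19 to 0.27. No called member changed direction. The difference of Wars from its family was 0.37 after median-ratio scaling, 0.39 with a pseudocount of 0.1 and 0.33 to 0.45 with a library left out; it was not run under quantile normalization, and the filter and weights do not enter it. No paired analysis was possible because the sample titles share no replicate name across groups. Depth limits Chac1 and Trib3 most, at roughly 12 to 71 reads per library.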
